A study of Mus musculus with 28 samples.

Results

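Interleukin-1 alpha and interleukin-1 beta (Il1a and Il1b) are inflammatory cytokines that signal through the same receptor, and the IL-1 receptor antagonist (Il1rn) occupies that receptor without activating it. IL-18 is a relative of IL-1 beta that is held in check by the secreted IL-18 binding protein (Il18bp). IL-1 beta and IL-18 are made as inactive precursors and are cut by caspase-1, which is activated on the inflammasome, an assembly of a sensor such as NLRP3 and the adaptor ASC (gene Pycard). Caspase-11 (gene Casp4 in the mouse) binds lipopolysaccharide in the cytosol, and both caspases cleave gasdermin D (Gsdmd), which forms pores in the plasma membrane. Microglia, the resident macrophages of the retina, respond to lipopolysaccharide through toll-like receptor 4, and transcription of Il1b and Nlrp3 is known as the priming step that precedes inflammasome activation.

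The values described here are those of these 10 genes, Il1a, Il1b, Il1rn, Il18, Il18bp, Nlrp3, Pycard, Casp1, Casp4 and Gsdmd, chosen by symbol from 40021 genes listed for microglia of 28 single mouse retinas. Each of the 10 was in the table, and each passed the filter for testing (at least 5 retinas with an RPKM of 1 or more), as did 13164 genes in all. The mice were male heterozygotes of the Cx3cr1CreER:R26-tdTomato (C57BL/6) strain, in which a tamoxifen-inducible Cre under control of the Cx3cr1 (fractalkine receptor) locus activates the red reporter tdTomato. Every group received tamoxifen, given at 4 to 5 weeks of age, and the sorted cells were live and bright for the reporter. Endotoxin-induced uveitis (EIU) was induced 4 weeks later by intravitreal injection of 10 ng lipopolysaccharide (LPS) in saline. Injected eyes were taken after 4 h (6 retinas), 18 h (5 retinas) or 2 weeks (7 retinas), and 10 naïve retinas received no injection. No group received saline alone, so that the effects of the injection and of LPS cannot be told apart.

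The retinas were collected in 2 experiments. Of the naïve retinas 6 came from experiment 1 and 4 from experiment 2. The 4 h group had 3 of each, the 18 h group 4 and 1, and the 2-week group 4 and 3. The labels do not tie the eyes of a mouse to each other, so each retina was taken as a replicate, and p-values may be too small where both eyes of a mouse are present. Values are RPKM, reads scaled by the length of the transcript and the size of the library, and so can be compared between genes. The retinas had 7510000 to 19700000 alignments, and between 6552 and 11825 genes at an RPKM of at least 1. At the deepest and the shallowest library, 1 read of the longest Il1b transcript was worth 0.0374 and 0.0982 RPKM, so values of that order rest on single reads. The 90 widely used genes looked up were chosen because their RPKM reached 10 in 20 or more of these same retinas. None was listed at 0 in any retina, but that choice favoured this result, so it is no test of detection. The 12 microglial markers were present in every group, with summed RPKM of 7647 to 20840 in naïve retinas, 4659 to 15160 at 4 h, 4626 to 16090 at 18 h and 10480 to 22610 at 2 weeks. Of the 12, 4 were lower at 4 h and 7 at 18 h than in naïve retinas (a change of 2-fold or more with a limma adjusted p up to 0.05). The 10 rod photoreceptor markers were also present throughout, with summed RPKM of 809 to 5985 in naïve retinas (median 3103), 978 to 5494 at 4 h (median 3876), 698 to 2556 at 18 h (median 2009) and 950 to 5928 at 2 weeks (median 3667). The sums of 10 Müller glia markers were 273 to 4995 (median 1849), 927 to 2489 (median 1305), 163 to 1813 (median 1066) and 976 to 10200 (median 1823) in the same order. By the same test Nrl of the rod markers (log2 fold change -1.50, adjusted p = 0.038) and Glul of the Müller markers (-1.09, adjusted p = 0.042) were lower at 18 h. The part of these cells in the results was not tested.

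In naïve microglia the genes were ordered, by median RPKM, as Pycard (81.1), Casp1 (76.7), Il1a (74.6), Il18 (45.4), Gsdmd (15.7), Casp4 (6.77), Nlrp3 (2.68), Il18bp (0.447), Il1b (0.443) and Il1rn (0). The ranges of all neighbours in that order overlapped. The adaptor, caspase-1, IL-1 alpha and IL-18 thus had transcripts in the uninjected retina, while those of IL-1 beta and the antagonists were at or near the level of single reads in several naïve retinas. At 4 h the order began with Il1a (5456), Il1b (889.5) and Il1rn (187.2), and Gsdmd (10.3) and Il18bp (1.59) were the sole neighbours whose ranges did not overlap. At 18 h it began with Pycard (176.9), Il1a (121.1) and Casp1 (100.7) and ended with Nlrp3 (1.402). At 2 weeks the 7 highest genes were those of naïve retinas in a similar order, from Casp1 (69.1) to Nlrp3 (2.96).

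**Figure D1:**
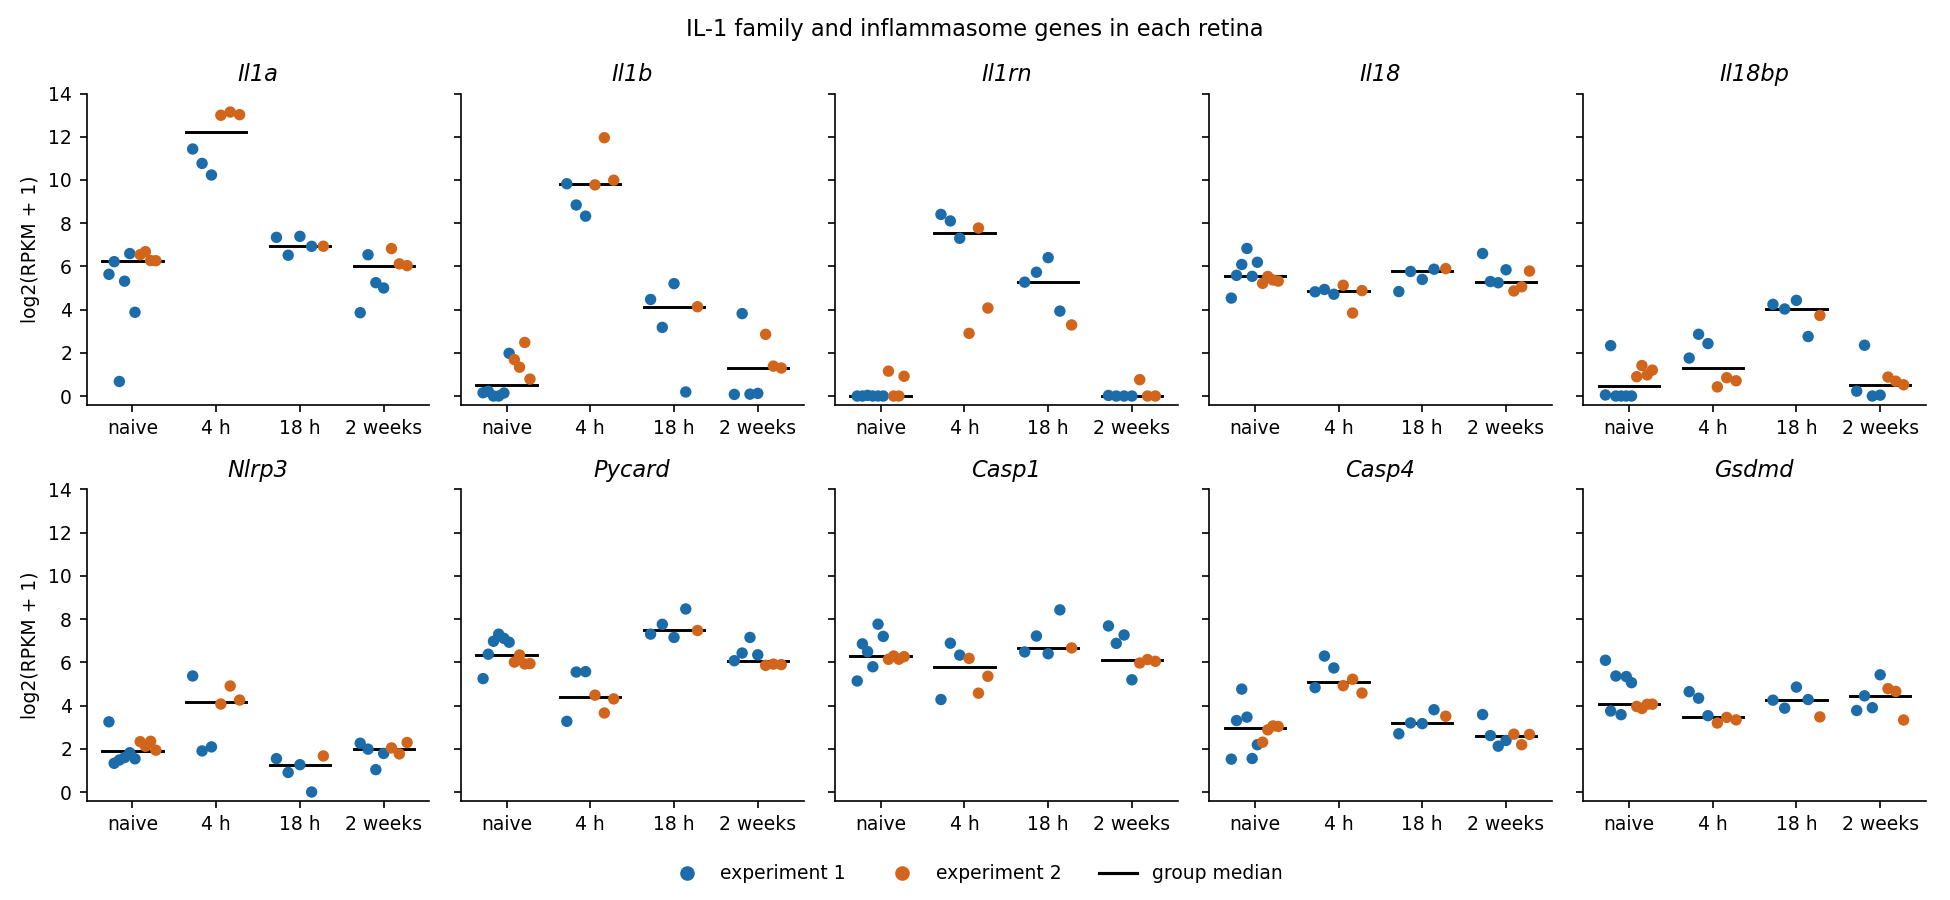
RPKM of the 10 genes in each of the 28 retinas, as log2(RPKM + 1), by group, with points coloured by experiment and a black line at the group median. All 4 h values of Il1a, Il1b and Il1rn lie above all naïve values, Il1rn and Il18bp stand above all naïve values at 18 h, and the 2-week values overlap the naïve ones for each gene.

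Differences from naïve were tested with limma on log2(RPKM + 1), with the 4 groups fitted together. A gene was called changed at a Benjamini-Hochberg adjusted p of at most 0.05 over the 13164 genes and a fold change of at least 2 on that scale, on which the change of a scarce transcript is understated. At 4 h, 6 of the 10 genes were called, against 8.08% of all genes tested. Up-regulated were Il1a, Il1b, Il1rn, Nlrp3 and Casp4 (3.68% of all genes were called in this direction), and Pycard was down-regulated (4.39%). For Il1a, Il1b and Il1rn all 4 h values lay above all naïve values, as for 1.65% of all genes. At 18 h, 3 of 10 were called, Il1b, Il1rn and Il18bp, all up-regulated, against 4.69% of all genes, with 2.84% called up-regulated and 1.85% down-regulated. At 2 weeks 0 of 10 were called, against 0.0076% of all genes. Between 18 h and 4 h, 6 of 10 differed, against 5.42%: Il1a, Il1b, Nlrp3 and Casp4 were lower at 18 h (2.51% of all genes) and Il18bp and Pycard higher (2.92%). For each of the 4 lower genes all 18 h values lay below all 4 h values, as for 2.79% of all genes. Over the 10 genes the log2 fold change had a median of 1.30 (4 h), 0.92 (18 h) and -0.09 (2 weeks), where the 13164 tested genes had -0.11, -0.08 and 0.07. The comparisons with naïve share the same 10 naïve retinas.

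Il1a was the most abundant of the 10 transcripts at 4 h. Its RPKM ranged from 0.595 to 101.6 in naïve retinas, with a median of 74.6, and the lowest value came from a retina with 7088 genes detected. At 4 h the 3 retinas of experiment 1 had 2760, 1739 and 1199 and those of experiment 2 had 8153, 9043 and 8304. All 6 lay above every naïve retina, and the experiments did not overlap with each other. This gave a log2 fold change of 6.52 (SE 0.66, adjusted p = 1.2e-08). At 18 h Il1a had 161.4, 90.5, 166.7, 120.8 and 121.1, of which 4 lay above every naïve value, but the log2 fold change of 1.62 (SE 0.70) did not pass the test (adjusted p = 0.21). From 4 h to 18 h Il1a fell by 4.91 (SE 0.77, adjusted p = 6.5e-05). Within experiment 1 alone that difference was -3.76 and was not called (adjusted p = 0.069).

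Il1b was low in naïve retinas and had the largest log2 fold change of the 10 genes at 4 h. Of 10 naïve retinas 2 were listed at 0, the median was 0.443 and the highest value 4.57. The naïve values ran from 0 to 2.94 in experiment 1 (median 0.106) and from 0.722 to 4.57 in experiment 2 (median 1.87). At 4 h the values were 905.4, 457.3 and 319.5 in experiment 1 and 873.6, 3968 and 1013 in experiment 2. Every 4 h retina was thus far above every naïve retina, with a log2 fold change of 8.91 (SE 0.65, adjusted p = 1.2e-11). At 18 h the values were 21.1, 8.05, 35.8, 0.139 and 16.5. Here 4 of 5 retinas lay above the naïve range, and the retina at 0.139, the one with the fewest genes detected at 18 h (6969), lay within it. The log2 fold change at 18 h was 2.56 (SE 0.69, adjusted p = 0.024), and from 4 h to 18 h Il1b fell by 6.35 (SE 0.76, adjusted p = 8.9e-07). The 18 h call was lost with pseudocounts of 0.1 or 10, without a filter, on untransformed RPKM and within either experiment. It was also lost without 18 h replicate 1, 2, 3 or 5 in turn (adjusted p = 0.098, 0.053, 0.13 and 0.077).

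The library did not keep strand, and both agonist genes share bases with a gene on the other strand. Gm14023, which overlaps Il1a, had an RPKM of 0.12 to 8.71 in naïve retinas and 44.0 to 369 at 4 h. Il1bos, antisense to Il1b, was at 0 in 7 of 10 naïve retinas and ranged from 0 to 91.9 at 4 h. Reads of each pair cannot be told apart here, and the RPKM of both genes rests on how the authors' method divided those reads. By that division, Gm14023 and Il1bos had lower medians than Il1a and Il1b in every group. The part of antisense reads in the values was not tested. Il1a (ENSMUSG00000027399) lies on chromosome 2 of GRCm38 at 129299610 to 129309972 and Il1b (ENSMUSG00000027398) at 129364570 to 129371139, both on the minus strand. Il1rn (ENSMUSG00000026981) lies on the plus strand of the same chromosome at 24336853 to 24351494, and Casp4 (ENSMUSG00000033538) on chromosome 9 at 5308828 to 5336783.

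Il1a, Il1b, Il1rn and Casp4 had the 4 largest log2 fold changes of the 10 genes at 4 h, and the bases just upstream of their starts are shown to let their promoters be compared. They are from RefSeq (GRCm38.p6), up to 250 bases before the first RefSeq start of each gene, cut where a GENCODE exon of the gene begins, and written 5′ to 3′ on the strand of the gene. Capitals mark every match on either strand to a kappa B motif (GGGNNNNNCC), an AP-1 motif (TGANTCA), a PU.1 motif (GAGGAA), an interferon-stimulated response element (GAAANNGAAA), a gamma-activated site (TTCNNNGAA) or a TATA box (TATAAA).
Il1a (chr2:129309973-129310222, minus strand): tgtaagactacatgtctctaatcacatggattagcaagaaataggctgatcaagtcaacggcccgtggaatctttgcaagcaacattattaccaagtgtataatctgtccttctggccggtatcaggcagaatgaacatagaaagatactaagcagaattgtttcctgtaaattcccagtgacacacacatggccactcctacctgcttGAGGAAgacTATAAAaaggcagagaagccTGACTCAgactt
Il1b (chr2:129371140-129371389, minus strand): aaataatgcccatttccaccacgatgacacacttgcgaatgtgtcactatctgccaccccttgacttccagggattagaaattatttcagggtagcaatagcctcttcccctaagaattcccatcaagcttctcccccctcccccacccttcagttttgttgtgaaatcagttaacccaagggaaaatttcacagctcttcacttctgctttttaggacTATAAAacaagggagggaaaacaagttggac
Il1rn (chr2:24336610-24336852, plus strand): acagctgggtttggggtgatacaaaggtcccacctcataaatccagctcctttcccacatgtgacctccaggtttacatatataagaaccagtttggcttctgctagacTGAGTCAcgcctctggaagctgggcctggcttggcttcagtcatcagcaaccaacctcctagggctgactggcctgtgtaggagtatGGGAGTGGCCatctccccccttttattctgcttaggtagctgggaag
Casp4 (chr9:5308599-5308827, plus strand): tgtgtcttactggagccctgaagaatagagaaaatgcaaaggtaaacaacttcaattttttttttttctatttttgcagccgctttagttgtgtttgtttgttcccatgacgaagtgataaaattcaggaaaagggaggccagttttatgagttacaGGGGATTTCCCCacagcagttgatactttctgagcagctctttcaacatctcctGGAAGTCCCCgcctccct

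A match to such letters is a description and not a binding site. The TATA box letters stood from 32 to 27 bases before the start of Il1a and from 31 to 26 bases before that of Il1b, and were present in 12.4% of the 32851 windows of 250 bases before all RefSeq starts. Il1a also had the AP-1 letters 12 to 6 bases before its start, and Il1rn had them 141 to 135 bases before its first RefSeq start. Later RefSeq starts of Il1rn lacked them. The window from 24345041 had no match to any motif, and that from 24345121 had a kappa B match alone. Which start these cells used was not tested. AP-1 letters were in 6.75% of all windows. The kappa B letters were not in the windows of Il1a or Il1b. They were in that of Il1rn, 54 to 45 bases before the first start, and in that of Casp4, where overlapping matches on both strands made up a stretch of 12 bases. Kappa B letters of this loose form were in 45.8% of all windows. Of the 10 genes 9 had an entry, Gsdmd being the exception. In any window of these 9, kappa B letters were found for Il1rn, Nlrp3, Casp1 and Casp4, PU.1 letters (23.3% of all windows) for Il1a, Nlrp3, Casp1 and Pycard, AP-1 letters for Il1a and Il1rn, and TATA letters for Il1a, Il1b and Il18. The interferon-stimulated response element (2.98% of all windows) and the gamma-activated site (7.02%) matched in none of them. The Il18bp window (102018233 to 102018482, minus strand) lay within the gene as annotated by GENCODE, which begins at 102018690. The bases upstream of that start were not searched for Il18bp.

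Il1rn, the receptor antagonist, was listed at 0 in 7 of 10 naïve retinas, and the other three had 0.0212, 0.884 and 1.22. At 4 h the 3 retinas of experiment 1 had 337.7, 273.7 and 156.5, and those of experiment 2 had 6.47, 217.9 and 15.8. All 6 lay above every naïve retina, with a log2 fold change of 6.22 (SE 0.60, adjusted p = 5.7e-09). With a pseudocount of 0.1 or 10 this value was 8.97 or 3.41, since it is measured against retinas at 0. At 18 h the values were 37.6, 52.0, 83.7, 14.2 and 8.78, again all above naïve, and the log2 fold change was 4.71 (SE 0.64, adjusted p = 9.9e-06). This call was lost on untransformed RPKM (adjusted p = 0.60) and with experiment 2 alone, which has 1 retina at 18 h (adjusted p = 0.36). The ranges at 4 h and 18 h overlapped, and the difference of -1.50 between them (SE 0.70) did not pass the test (adjusted p = 0.27). Within experiment 1 alone it was -2.60 and did (adjusted p = 0.020), as it did on untransformed RPKM (adjusted p = 0.037) and without 4 h replicate 4 (-2.21, adjusted p = 0.023).

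**Figure D2:**
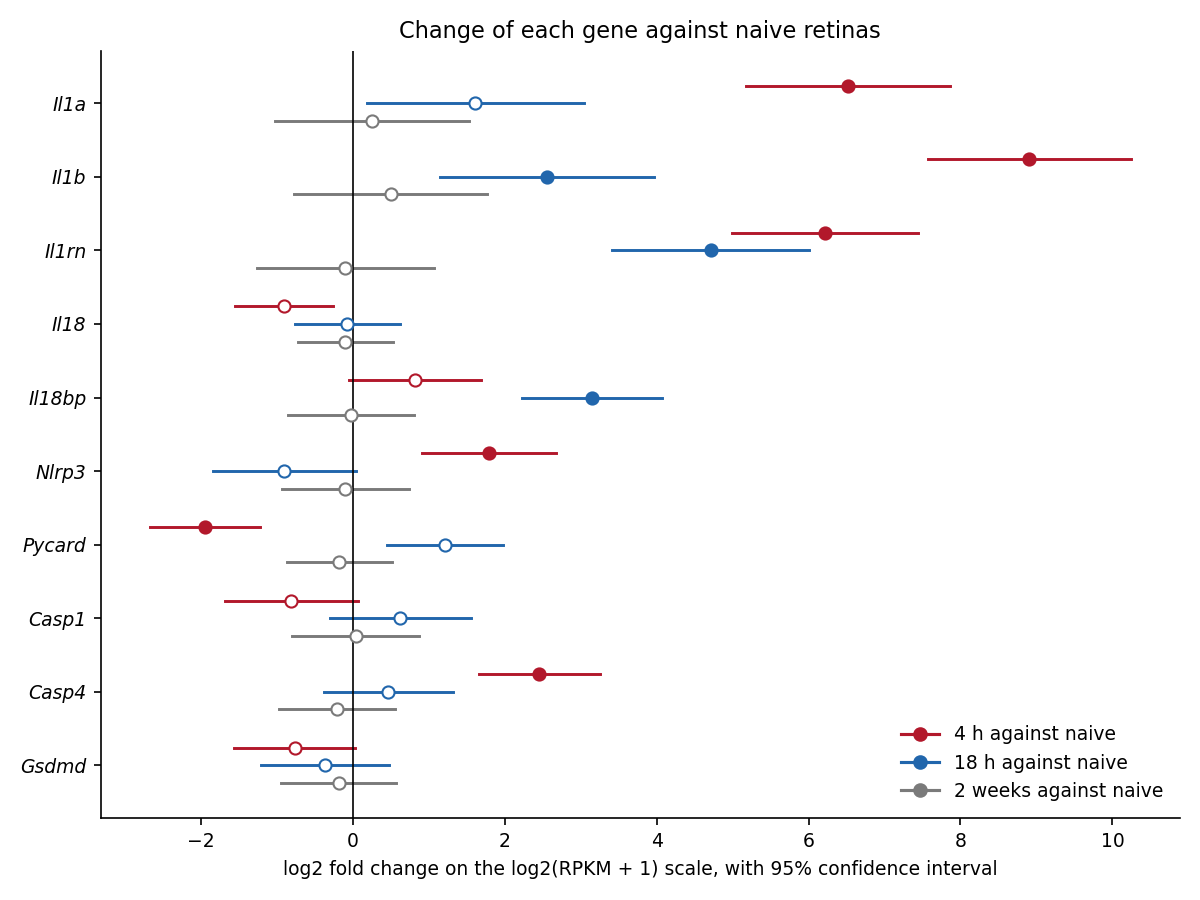
Log2 fold change of each gene against naïve retinas at 4 h (red), 18 h (blue) and 2 weeks (grey), on the log2(RPKM + 1) scale, from the limma fit, with 95% confidence intervals; filled points passed the test. The 4 h changes of Il1a, Il1b and Il1rn exceed 6, Il1rn (4.71), Il18bp (3.15) and Il1b (2.56) pass at 18 h, and no 2-week point is filled.

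To set agonist against antagonist within a retina, log2 ratios of RPKM + 1 were compared with naïve by exact permutation tests over retinas (two-sided, adjusted over 9 tests). The Il1b to Il1rn ratio was 0.67 ± 0.93 (SD, n = 10) in naïve retinas, where both transcripts were scarce, and 3.36 ± 2.67 (n = 6) at 4 h (exact permutation test, adjusted p = 0.032). At 18 h it was -1.49 ± 1.75 (n = 5, exact permutation test, adjusted p = 0.028), with the antagonist above the agonist in 4 of 5 retinas. At 4 h the ratio was 1.42, 0.74 and 1.03 in experiment 1 and 6.87, 4.18 and 5.91 in experiment 2. Within experiment 1 alone the rise at 4 h was 0.65 and was not called (exact permutation test, adjusted p = 0.36). Within experiment 2 alone it was 4.60 (exact permutation test, adjusted p = 0.34). With 3 retinas at 4 h and 4 naïve ones, that test cannot call any difference. All 4 h ratios of experiment 2 lay above all its naïve ratios, which ran from -0.13 to 2.48. The rise was also not called without 4 h replicate 4, 5 or 6 (exact permutation test, adjusted p = 0.085 for each). Without the 4 retinas with fewer than 7500 genes at an RPKM of at least 1, neither the 4 h nor the 18 h difference of this ratio was called (2.52 and -1.77, exact permutation test, adjusted p = 0.068 for both). The Il1a to Il1rn ratio was 5.20 ± 1.80 in naïve retinas (n = 10), and 2.10 ± 1.24 at 18 h (n = 5, exact permutation test, adjusted p = 0.028). The 18 h call was lost within experiment 1 alone and with a pseudocount of 10. At 4 h it was 5.51 ± 3.28 (n = 6, exact permutation test, adjusted p = 0.89), which joins retinas of experiment 1 at 2.66 to 3.03 and of experiment 2 at 5.37 to 10.1.

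**Figure D3:**
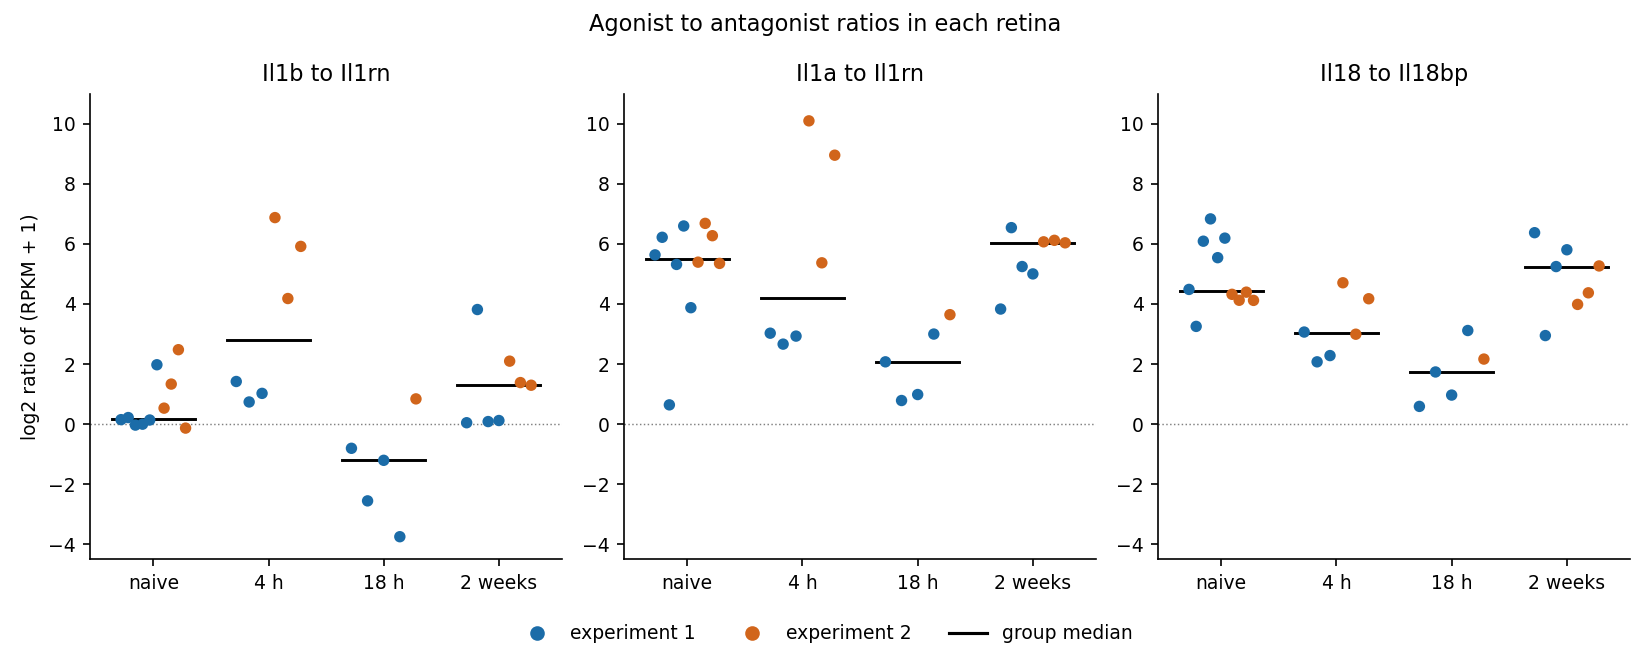
Log2 ratio of RPKM + 1 of agonist to antagonist in each retina for Il1b to Il1rn, Il1a to Il1rn and Il18 to Il18bp, by group, coloured by experiment, with a black line at the group median and a dotted line at equal levels. Il1b to Il1rn is below 0 in 4 of 5 retinas at 18 h, and the 4 h ratios to Il1rn of experiment 2 lie above those of experiment 1.

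Il18 transcript was present in every retina and was not called at any time. It ranged from 22.1 to 112.7 in naïve retinas (median 45.4). At 4 h it had 27.3, 29.5, 25.2, 33.9, 13.3 and 28.4, of which only the lowest lay below every naïve value. The log2 fold change of -0.90 (SE 0.32) did not pass (adjusted p = 0.077), although it passed after rescaling of each retina to the same summed RPKM (-1.18, adjusted p = 0.0084) and without naïve replicate 1 (-1.02, adjusted p = 0.029). That rescaling moved the 4 h median over all tested genes from -0.11 to -0.28 on the log2 scale. At 18 h Il18 had 27.5, 53.3, 41.1, 57.4 and 58.5, all within the naïve range. Il18 overlaps Bco2 on the other strand, a gene with medians of 16.2 RPKM in naïve retinas and 7.07 at 4 h.

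Il18bp, in contrast to Il18, was up-regulated at 18 h. Of 10 naïve retinas 4 were listed at 0 and the highest had 4.03. Those at 0 were all of experiment 1, and the naïve retinas of experiment 2 had 0.859 to 1.66. At 4 h the values were 2.38, 6.25 and 4.38 in experiment 1 and 0.340, 0.799 and 0.631 in experiment 2. The log2 fold change over both was 0.82 (SE 0.43, adjusted p = 0.28). Its sign was not shared by the experiments, with -0.46 within experiment 2 alone, where the 4 h values lay below the naïve ones. At 18 h the values were 17.9, 15.3, 20.5, 5.74 and 12.3, all above every naïve retina, as held for 2.05% of all genes tested. This gave a log2 fold change of 3.15 (SE 0.45, adjusted p = 2.4e-05), and this call was kept under each of the 17 alternative settings and without each retina in turn (log2 fold change 1.13 to 5.01). From 4 h to 18 h it rose by 2.33 (SE 0.50, adjusted p = 0.0033), a call lost within experiment 1 (1.51, adjusted p = 0.48) and with pseudocounts of 0.1 or 10. The Il18 to Il18bp log2 ratio was 4.93 ± 1.15 in naïve retinas (n = 10), 3.22 ± 1.04 at 4 h (n = 6, exact permutation test, adjusted p = 0.028), 1.72 ± 1.00 at 18 h (n = 5, exact permutation test, adjusted p = 0.0060) and 4.85 ± 1.17 at 2 weeks (n = 7, exact permutation test, adjusted p = 0.89). Its 4 h difference was not called in experiment 1 alone (-2.92, exact permutation test, adjusted p = 0.071). There all 4 h ratios (2.074 to 3.065) lay below all naïve ones (3.253 to 6.829). In experiment 2 alone the difference was -0.28 (exact permutation test, adjusted p = 0.74), and with 3 and 4 retinas that test cannot call any difference. The 4 h difference was also not called without the 4 retinas with few genes (-1.34, exact permutation test, adjusted p = 0.068). The 4 h call was also lost without 4 h replicate 2, 3 or 5 in turn (exact permutation test, adjusted p = 0.059, 0.059 and 0.057). Il18bp overlaps Numa1 on the other strand, a gene with medians of 3.54 RPKM in naïve retinas, 0.695 at 4 h and 1.52 at 18 h. The part of Numa1 reads in the Il18bp values was not tested.

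Nlrp3, the sensor, was low in naïve retinas (1.51 to 8.51, median 2.68) and was up-regulated at 4 h. The 4 h values were 40.4, 2.73 and 3.25 in experiment 1 and 15.8, 29.0 and 18.1 in experiment 2, so that 4 of 6 retinas lay above the naïve range and 2 within it. The log2 fold change was 1.79 (SE 0.43, adjusted p = 0.0057). The call was lost with a pseudocount of 10, where the fold change fell under 2 (0.93, adjusted p = 0.0017), and within experiment 1 (1.28, adjusted p = 0.48). At 18 h the values were 1.92, 0.874, 1.402, 0 and 2.18, with 3 of 5 below every naïve retina and a log2 fold change of -0.90 that did not pass (SE 0.46, adjusted p = 0.31). All 18 h values lay below all 4 h values, and the difference was -2.69 (SE 0.51, adjusted p = 7.4e-04). It was not called within experiment 1 (-2.19, adjusted p = 0.22).

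Pycard, which encodes the adaptor ASC, was called in the opposite direction to Nlrp3 at 4 h. Naïve values were 37.0 to 157.1 (median 81.1). At 4 h Pycard was down-regulated, with 8.66, 45.9 and 46.5 in experiment 1 and 21.4, 11.6 and 18.8 in experiment 2, of which 4 lay below every naïve value. The log2 fold change was -1.94 (SE 0.36, adjusted p = 2.9e-04), and was -1.86 within experiment 1 alone, where it was not called (adjusted p = 0.082). Nor was it called on untransformed RPKM (adjusted p = 0.098). At 18 h the values were 157.4, 215.9, 141.4, 354.1 and 176.9, of which 4 lay above every naïve value, and the log2 fold change of 1.22 (SE 0.38) missed the threshold (adjusted p = 0.057). It passed under 4 alternative settings, among them a filter at an RPKM of 5 (adjusted p = 0.037), and without naïve replicate 3, 4 or 5 or 4 h replicate 1, 2 or 3. All 18 h values lay above all 4 h values, as for 4.84% of genes, and the difference of 3.16 (SE 0.42, adjusted p = 4.4e-06) was called under each of the 17 alternatives and without each retina. Gm45205, which overlaps Pycard on the other strand, had at most 3.79 RPKM in naïve retinas and 1.39 at 4 h.

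Casp4, the gene of caspase-11, was up-regulated at 4 h while Casp1 was not called at any time. Casp4 had 1.87 to 26.1 RPKM in naïve retinas (median 6.77). At 4 h it had 27.5, 77.4 and 52.5 in experiment 1 and 29.3, 36.3 and 22.9 in experiment 2, and 5 of 6 retinas lay above the naïve range. The log2 fold change was 2.46 (SE 0.39, adjusted p = 4.2e-05), and it was called under each of the 17 alternatives (1.51 to 2.82) and without each retina. At 18 h Casp4 had 5.48, 8.18, 7.97, 13.01 and 10.4, all within the naïve range, with a log2 fold change of 0.47 (SE 0.42, adjusted p = 0.61). The difference between 18 h and 4 h was -1.99 (SE 0.46, adjusted p = 0.0066), which was not called within experiment 1 (-2.41, adjusted p = 0.12) or experiment 2 (-1.399, adjusted p = 0.069).

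Casp1 ranged from 34.2 to 216.9 RPKM in naïve retinas (median 76.7), from 18.4 to 117.3 at 4 h (median 55.8) and from 83.4 to 343.9 at 18 h (median 100.7). The groups overlapped, and the log2 fold changes were -0.81 (SE 0.43, adjusted p = 0.29) at 4 h and 0.63 (SE 0.46, adjusted p = 0.52) at 18 h. Their difference of 1.44 (SE 0.50) did not pass either (adjusted p = 0.099), but did with weights for each retina (1.28, adjusted p = 0.0017) and without 4 h replicate 2 (1.69, adjusted p = 0.045). Gsdmd, the pore-forming substrate of both caspases, had 10.96 to 67.5 RPKM in naïve retinas (median 15.7) and 8.14 to 23.99 at 4 h (median 10.3), with 4 of 6 retinas below every naïve value. Its log2 fold change was -0.76 at 4 h (SE 0.39, adjusted p = 0.26) and -0.37 at 18 h (SE 0.41, adjusted p = 0.71), with 95% intervals of -1.56 to 0.03 and -1.21 to 0.48.

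At 2 weeks the adjusted p was 1 for each of the 10 genes, and no unadjusted p was under 0.05 (378 of the 13164 genes had one). The log2 fold changes ran from -0.20 for Casp4 (SE 0.37) to 0.50 for Il1b (SE 0.62). Il1rn was listed at 0 in 5 of 7 retinas and was at most 0.691. Il1b had 0.0530, 13.1, 0.0621 and 0.0884 in experiment 1 and 6.23, 1.61 and 1.45 in experiment 2, so that 2 of 7 retinas lay above the highest naïve value of 4.57. Il18bp had 4.10 in the same retina that had 13.1 for Il1b, and at most 0.837 in the other six. The 95% intervals at 2 weeks reached from -0.77 to 1.77 for Il1b and from -1.03 to 1.53 for Il1a, so that changes within these intervals were not excluded.

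Because the experiments differed at 4 h for several of the genes, the difference between the 4 h changes of the experiments was itself tested as an interaction. None of the 10 genes passed at an adjusted p of 0.05, against 0.0988% of all genes, and 2 of them had an unadjusted p under 0.05. These were Il1rn, with a change in experiment 2 less that in experiment 1 of -3.53 on the log2 scale (SE 0.97, adjusted p = 0.30), and Il18bp (-2.41, SE 0.78, adjusted p = 0.49). For Il1a, whose 4 h values did not overlap between the experiments, the interaction was 0.52 (SE 1.15, adjusted p = 1). Without 4 h replicate 5, Il1rn passed, and with weights for each retina both antagonists did. Naïve retinas of experiment 1 had 6552 to 11825 genes at an RPKM of at least 1 and those of experiment 2 had 11129 to 11429, and the part of this difference in the results was not tested. The 2-week interaction was called for 0 of 10 genes, and none had an unadjusted p under 0.05.

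Markers of other leukocytes differed most at 18 h, when Nkg7, of cytotoxic lymphocytes, and Ms4a4c, listed as a monocyte marker, were called higher than in naïve retinas. Of 15 neutrophil markers 14 were in the table. Without Csf3r, which had 2.86 to 11.7 RPKM at 18 h and was also present in naïve retinas, their summed RPKM was 0 to 0.807 in naïve retinas, 0.0952 to 2.00 at 4 h, 0.0310 to 20.2 at 18 h and 0 to 1.89 at 2 weeks, with Mpo, Ngp and Ltf at 0 in every 18 h retina. The 10 monocyte markers summed to 14.01 to 76.9 in naïve retinas, 10.5 to 176.2 at 4 h, 153.1 to 324.4 at 18 h and 18.2 to 66.3 at 2 weeks. Most of this was Ms4a4c, with 8.59 to 56.9 in naïve retinas, 5.53 to 158.1 at 4 h and 134.4 to 314.8 at 18 h, where all 5 retinas lay above the naïve range (log2 fold change 3.28, SE 0.57, adjusted p = 4.0e-04). F13a1 had a log2 fold change of -1.93 at 18 h that did not pass (adjusted p = 0.16). Without these, which were also present in naïve retinas, the other 8 summed to 0.132 to 3.21, 0.0505 to 15.5, 0.228 to 49.7 and 0.480 to 26.6. For 9 lymphocyte markers, without Cd79b, the sums were 0 to 0.0806, 0 to 0.237, 7.80 to 86.5 and 0 to 8.23, so that every 18 h retina lay above every naïve one. Cd79b had 20.2 to 81.3 in naïve retinas, 6.60 to 18.3 at 4 h (log2 fold change -1.56, adjusted p = 9.0e-04) and 27.5 to 53.6 at 18 h. Most of the 18 h lymphocyte sum was Nkg7 (5.77 to 86.4, against 0 in every naïve and 4 h retina, log2 fold change 4.36, SE 0.34, adjusted p = 2.0e-10), while Cd79a was at 0 in every 18 h retina. The part of these cells in the 18 h values of Il1b, Il1rn and Il18bp was not tested. At 4 h, S100a9, Mpo, Ngp, Ltf, Mmp8, Retnlg and Stfa2l1 were at 0 in every retina.

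Beyond the 10 genes, 66 other genes of the pathway were listed by name, of which 63 were in the table and 39 were tested. At 4 h, 2 of the 39 were called higher than in naïve retinas (3.68% of all genes) and 5 lower (4.39%). The 18 h comparison called 3, all higher (2.84%), and the 2-week comparison 0 (0.0076%). Among 10 IL-1 family receptors (4 tested), Il1r2, a decoy receptor that binds IL-1 without signalling, rose at 4 h by 3.29 (SE 0.55, adjusted p = 8.0e-05), from a median of 0.272 RPKM to 17.2, with 5 of 6 retinas above the naïve range. It was back at a median of 0.835 at 18 h, lower than at 4 h (log2 difference -3.17, adjusted p = 0.0018). Il1rl2, the receptor for IL-36, fell by 1.25 at 4 h (adjusted p = 0.040). The signalling receptor for IL-1, Il1r1, did not pass the filter, and its partner Il1rap had a log2 fold change of -0.25 at 4 h (adjusted p = 0.75).

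Of 11 genes of receptor-proximal signalling, all tested, Irak3, an inhibitory kinase homologue, was up-regulated at 4 h (1.88, SE 0.47, adjusted p = 0.0079) and at 18 h (2.09, SE 0.50, adjusted p = 0.0099), from a naïve median of 1.03 RPKM to 4.71 and 6.68. Myd88, the adaptor of the IL-1 receptors, had a log2 fold change of 2.29 at 4 h that missed the threshold (SE 0.76, adjusted p = 0.056). Irak2 was lower at 18 h than at 4 h (log2 difference -2.64, adjusted p = 0.0031). Of 12 other inflammasome sensors 6 were tested, and Naip5 was down-regulated at 4 h (-1.17, adjusted p = 0.041). The Naip genes are close copies of each other, so that the division of reads among them is uncertain. Of 14 co-factors and regulators 9 were tested, and 3 were down-regulated at 4 h, a direction called for 4.39% of all genes. Nek7, a kinase that binds NLRP3, had 3.58 to 6.50 RPKM at 4 h against 8.97 to 25.3 in naïve retinas, with no overlap, as for 1.42% of all genes (log2 fold change -1.50, SE 0.27, adjusted p = 2.0e-04). Txnip changed by -2.001 (adjusted p = 0.014) and Card6 by -1.06 (adjusted p = 0.046). Of 13 genes of pyroptosis and related cell death 8 were tested and none was called at 4 h. At 18 h Zbp1, a nucleic acid sensor, rose by 3.07 (SE 0.54, adjusted p = 4.7e-04), with all 5 retinas (4.17 to 37.4 RPKM) above the naïve maximum of 4.13, as for 2.05% of all genes. Mlkl, the pore-former of necroptosis, rose by 1.41 (SE 0.30, adjusted p = 0.0033), from 0 in 8 of 10 naïve retinas to a median of 2.77.

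**Figure D4:**
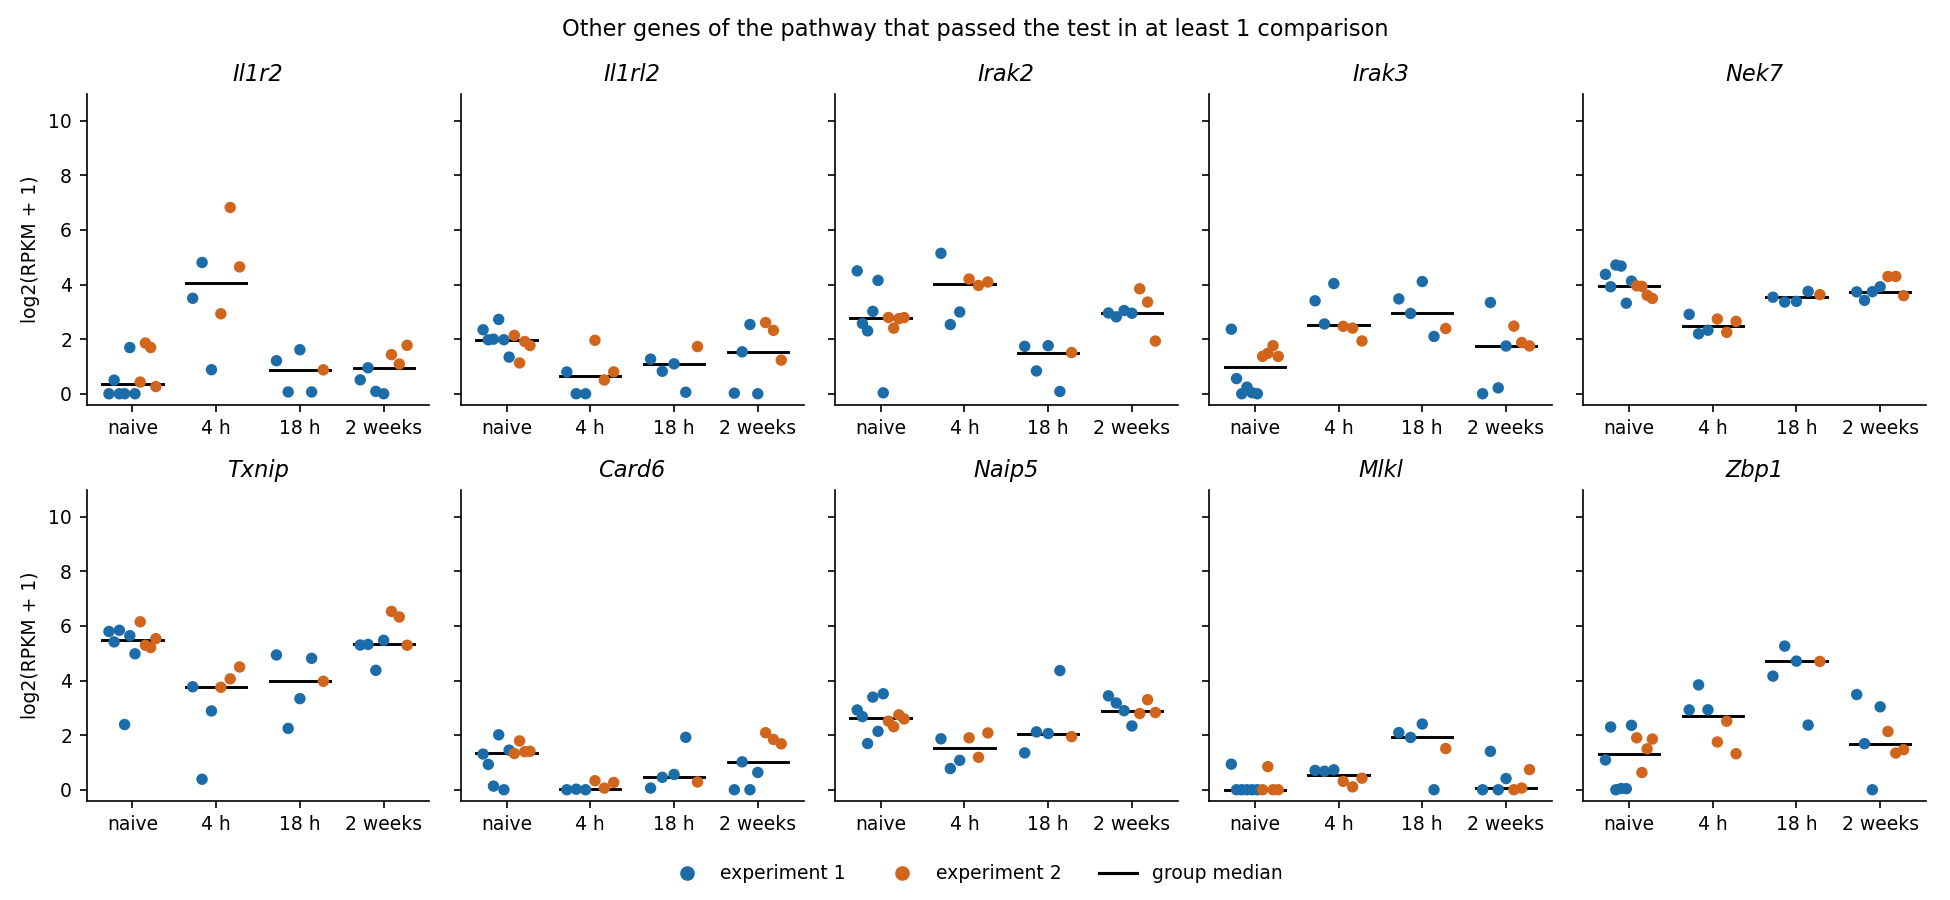
The 10 other genes of the pathway that passed the test in at least 1 comparison, as log2(RPKM + 1) in each retina by group, coloured by experiment, with a black line at the group median. Nek7 lies below all naïve values at 4 h, Il1r2 is above the naïve range in 5 of 6 retinas at 4 h, and Zbp1 is above it in all 5 retinas at 18 h.

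The genes most like each of the 10 over the 28 retinas, by Pearson's r of log2(RPKM + 1), are given as a description, since the retinas share groups, experiments and depth. For Il1a they were Rel (0.942), Tnf (0.924) and Id2 (0.924), and for Il1b Il12b (0.953), Tnf (0.951) and Gadd45b (0.950). Il1rn was most like Car13 (0.939), Sod2 (0.938) and Gbp2 (0.927), and Il18bp most like BE692007 (0.916), Aoah (0.903) and Ifitm3 (0.900). Nlrp3 went with Itpkc (0.899), Lmnb1 (0.885) and Relb (0.865), Casp4 with Srgn (0.889), Gm45184 (0.869) and Ccl3 (0.865), and Pycard with Timm10b (0.934), Ptrh2 (0.923) and Hsp90b1 (0.899). For Il18 the highest r was 0.861 (2310009A05Rik), for Casp1 0.894 (1500011K16Rik) and for Gsdmd 0.790 (Fbxl14).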

How the data were processed

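The authors sorted live tdTomato-bright microglia from single retinas, amplified polyA RNA with the SMART-Seq v4 kit, made Nextera XT libraries, which do not keep strand, and mapped reads to mm10 with STAR 2.5.3a after bcl2fastq 2.20. Partek's expectation-maximisation method then divided reads among transcripts, and the authors deposited RPKM values per gene and retina, from which whole reads were not recovered. Depth was read from the alignments listed for each retina, 7510000 to 19700000, and limits the precision of values near 1 read. The authors' 4 h and 18 h tables hold their own p-values and fold changes and were not used. The number of columns of other samples was 0.

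Groups followed the labels. Values were transformed to log2(RPKM + 1), and genes that reached an RPKM of 1 in at least 5 retinas were fitted with limma 3.58.1 in R 4.3.3, all 4 groups in 1 fit, an empirical Bayes trend with mean level, and p-values adjusted after Benjamini and Hochberg. The retina was the replicate, and the limma p-values set a difference between groups against the spread of retinas within groups. The main fit had no term for the experiment, so that spread includes differences between the experiments. Ratios were tested by exact permutation in Python 3.11.15. The fits were also run on simulated data, but no outcome of that is given here. The 10 genes and all lists were chosen with earlier results of these data known. The text names the 10 genes, and of the other listed genes those called at any time, and some (Il1rap, Il1r1, Myd88, Irak2, and the markers) were named after their values were seen. Coordinates are those of GENCODE M21. Il36a, Il36b and Il1f10 were not analysed here. Alternatives were other pseudocounts, filters, covariates, a replicate block, each experiment alone, each retina left out, other scalings and variance models, and untransformed RPKM. Leaving out the 4 retinas with fewer than 7500 genes was chosen after seeing the data.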

Additional observations from a re-analysis of the deposited data

Results flagged for a closer look

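A retina was singled out where it stood apart from the others of its group by Dixon's criterion, which held in 7 of 40 groups of values for the 10 genes, where chance alone gives about 5%. Il1a had 0.595 RPKM in naïve replicate 3, below the next lowest value of 13.7, and Nlrp3 had 8.51 in naïve replicate 1. At 4 h Il18 had 13.3 in replicate 5, below the next lowest of 25.2. At 2 weeks Il1rn had 0.691 in replicate 5, Il18bp had 4.10 in replicate 2, Nlrp3 had 1.05 in replicate 3 and Casp4 had 11 in replicate 1. Naïve replicate 3 and 2-week replicate 1 had 7088 and 6644 genes at an RPKM of at least 1, under the 7500 that most retinas exceeded. Leaving out the 4 retinas under that number changed no call of a single gene among the 10, against naïve or between 18 h and 4 h, but it ended the calls of 3 ratios given with the processing.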

How the results depend on the processing

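The counts of called genes were 6 at 4 h, 3 at 18 h, 0 at 2 weeks and 6 between 18 h and 4 h, and they moved by more than 1.5 times at 18 h with experiment 2 alone (1, Il18bp) and between 18 h and 4 h with experiment 1 alone (3), where fewer retinas were fitted. The interaction at 4 h called 0 genes, 2 with weights for each retina and 0 to 1 with each retina left out (1, Il1rn, without 4 h replicate 5). The cause of the last was not tested. Retinas of different groups with the same replicate number had r above 0.1 in 15 of 34 pairs (all pairs from -0.33 to 0.70). Among the 15, the sole pair that crossed the experiments was replicate 4 of 4 h and 2 weeks (r = 0.116). Of 28 retinas, 7 correlated best with a retina of their own number. These values do not settle whether the numbers pair the retinas. The replicate block left the counts at 6 and 3 and the Il1b log2 fold change at 4 h at 9.27.

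The agonist to antagonist ratios depended on the pseudocount, the experiment and single retinas. The antagonists were near 0 in many naïve retinas, and the part of this in the ratios was not tested. With a pseudocount of 0.1 the 4 h difference was 1.58 for Il1b to Il1rn, -2.30 for Il1a to Il1rn and -2.93 for Il18 to Il18bp, none of them called. With a pseudocount of 10 the 18 h difference of Il1a to Il1rn was -0.80 and not called. Experiment 1 alone gave 0.65, -1.84 and -2.92 at 4 h and -3.001 for Il1a to Il1rn at 18 h. Experiment 2 alone gave 4.60 for Il1b to Il1rn and -0.28 for Il18 to Il18bp at 4 h, and 0.30 for the latter at 2 weeks. Without the 4 retinas under 7500 genes the values were 2.52, -0.25 and -1.34 at 4 h, -1.77 for Il1b to Il1rn at 18 h and 0.050 for Il18 to Il18bp at 2 weeks. With each retina left out they ranged from 1.99 to 3.21 (Il1b to Il1rn), -0.61 to 0.88 (Il1a to Il1rn) and -2.02 to -1.49 (Il18 to Il18bp) at 4 h, and from -0.16 to 0.64 (Il1a to Il1rn) and -0.33 to 0.24 (Il18 to Il18bp) at 2 weeks.

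Reversals of sign occurred among changes that were not called. They were Il18bp at 4 h (-0.46 with experiment 2, -0.11 with weights), Il18 at 18 h (0.54 with experiment 2, 0.0053 with weights, 0.063 without the 4 retinas) and Gsdmd at 18 h (0.12 with weights). At 2 weeks they were Il1a (-0.11 with experiment 2, -0.080 with weights, -0.044 untransformed, -0.049 without the 4 retinas), Il1rn (0.0015 with experiment 1), Il18bp (0.19 with a pseudocount of 0.1, 0.20 with the replicate block, 0.26 with experiment 1, 0.12 after quantile normalisation) and Casp1 (-0.032 with the replicate block, -0.16 with experiment 2, -9.0e-06 after quantile normalisation, -0.23 without the 4 retinas). The others at 2 weeks were Pycard (0.032 without the 4 retinas) and Gsdmd (0.27 with experiment 2, 0.29 with weights). With each retina left out, signs varied for Il18 at 18 h (-0.19 to 0.11) and, at 2 weeks, for Il1a (-0.27 to 0.55), Il1rn (-0.21 to 0.0071), Il18 (-0.27 to 0.041), Il18bp (-0.29 to 0.17), Nlrp3 (-0.17 to 0.048), Casp1 (-0.16 to 0.25) and Casp4 (-0.37 to 0.015).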
